A study of Mus musculus with 16 samples.

Results

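The genes at the ends of the mouse T cell receptor alpha locus described here are TRAV1 and TRAV2, which lie farthest from the joining (TRAJ) segments, and TRAV17, TRAV19 and TRAV21-DV12, which lie close to them. Their members are the TRA contigs that carry these V labels in cells with exactly 1 TRB and 1 or 2 TRA chains, 1799 of 40428 TRA contigs in 1793 of 38108 cells. The far pair gave 294 contigs (TRAV1 225, TRAV2 69) and the near trio 1505 (TRAV17 203, TRAV19 385, TRAV21-DV12 917). The receptors were read from CD4+ T cells sorted as CD44high, the antigen-experienced fraction, from mouse spleen.

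The libraries form 4 groups of 2: each group has 1 library in experiment 1 and 1 in experiment 2, which carry separate batch labels. Eomes knockout (KO) mice given an agonistic antibody to 4-1BB (anti-4-1BB), a costimulatory receptor, KO mice given control IgG, wild-type (WT) mice given the antibody to 4-1BB, and WT mice given control IgG were compared. KO mice were Eomesfl/fl-CD4Cre in experiment 1, where Cre is driven by the CD4 promoter, and Eomesfl/fl-ERT2CD4Cre in experiment 2, where ERT2 makes Cre depend on tamoxifen. The WT mice were Eomes-IRES-GFP in both, a reporter genotype whose label names no Cre. All 4 groups received an NK1.1-depleting antibody (50 µg, days -2 and 5), a Vk12653 multiple myeloma graft (day 0) and 3 doses of anti-4-1BB or control IgG (20 µg, days 10, 13 and 16) before the sort at day 18. Tamoxifen was added in all groups of experiment 2, so the kind of knockout, tamoxifen and the experiment cannot be told apart. No age is given, and nothing in the labels says how many animals a library holds, so the spread between libraries may be technical. The files hold receptor chains alone, so Eomes and the markers of the sorted cells were not checked here.

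An alpha chain is made when a TRAV gene is joined to 1 of a long row of TRAJ segments. TRAJ segments are numbered backwards: high numbers lie closest to the TRAV genes and low numbers closest to the constant region. The first joins in a thymocyte tend to use TRAV genes and TRAJ segments that lie close together, and the locus can be cut again, on either allele, each time bringing a more distant TRAV gene to a TRAJ segment farther along the row. TRAV1 joined to TRAJ33 is the alpha chain of mucosal-associated invariant T (MAIT) cells.

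In the GRCm38.p6 annotation of chromosome 14, TRAV1 (52427967 to 52428876) and TRAV2 (52567293 to 52568053) are the first 2 of 130 TRAV genes and lie 1728 kb and 1589 kb from TRAJ58, the highest number found in these chains. TRAV17 (53806639 to 53807115), TRAV19 (53845322 to 53845827) and TRAV21-DV12 (53876016 to 53876752) are numbers 124, 126 and 128 in that order, at 350.2, 311 and 281 kb. TRAV21-DV12 can also serve as a delta-chain V gene. The TRAJ segments from TRAJ58 to TRAJ2 span 60.6 kb, and the starts of all 43 TRAJ labels found follow their numbers without exception. Each of the 5 genes is the only one of its family number among the 88 TRAV labels in the files, unlike the duplicated middle of the locus.

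The CDR3, the loop made at the join, is given here for the alpha chain of each gene that occurred in the most libraries and for its largest clonotype, since these show which J ends the far and near genes carry. Sequences come from the contigs, 5′ to 3′, and capitals mark bases that match neither the usual start of that gene's CDR3s nor the usual end of that TRAJ's. The chain found in the most libraries was 1 of 2 tied chains for TRAV1 and for TRAV2, 1 of 8 for TRAV17 and 1 of 4 for TRAV19, and the tied chain with the most cells (then the first in alphabetical order) is printed.
TRAV1 with TRAJ33, most widespread: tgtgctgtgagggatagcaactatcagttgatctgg
TRAV1 with TRAJ17, largest clonotype: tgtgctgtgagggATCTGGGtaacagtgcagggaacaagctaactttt
TRAV2 with TRAJ30, most widespread: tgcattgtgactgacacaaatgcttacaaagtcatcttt
TRAV2 with TRAJ23, 1 of its 4 largest clonotypes: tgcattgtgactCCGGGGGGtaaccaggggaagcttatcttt
TRAV17 with TRAJ52, both: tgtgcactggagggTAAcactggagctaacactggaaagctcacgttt
TRAV19 with TRAJ57, most widespread: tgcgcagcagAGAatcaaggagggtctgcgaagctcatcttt
TRAV19 with TRAJ43, largest clonotype: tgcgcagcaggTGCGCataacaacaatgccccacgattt
TRAV21-DV12 with TRAJ56, most widespread: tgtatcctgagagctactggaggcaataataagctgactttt
TRAV21-DV12 with TRAJ53, largest clonotype: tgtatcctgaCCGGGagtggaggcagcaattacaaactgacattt
In this set the far genes end in TRAJ segments numbered 17 to 33 and the near genes in TRAJ segments numbered 43 to 57. The most widespread chains of TRAV1, TRAV2 and TRAV21-DV12 hold no base outside the usual V start and J end.

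Depth set how finely each gene could be seen. Libraries held 80551 to 445027 TCR UMIs and 2656 to 8871 kept cells, and the median main TRA rested on 6 to 10 UMIs. Anti-4-1BB libraries had medians of 8 to 10 and IgG libraries 6 to 8, higher with the agonist in all 4 combinations of experiment and genotype, and the part of this in the group comparisons was not tested. Cells within a library that shared TRB and main TRA (the TRA with more UMIs) formed a clonotype. There were 30489 clonotypes, of which 238 used a far gene (TRAV1 177, TRAV2 61) and 1111 a near gene (TRAV17 155, TRAV19 305, TRAV21-DV12 651). Some barcodes, 1749 of 38108 cells and 101 of the 1793 cells described here, occurred in more than 1 library. None of these barcodes carried the same receptor (TRB and main TRA) in 2 libraries (0 of 866 barcodes).

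The near genes were joined to the end of the TRAJ row closest to the TRAV genes, and the far genes to its middle and lower numbers. Clonotypes with TRAV1 or TRAV2 had a mean TRAJ number of 22.8 ± 2.12, against 49.5 ± 0.603 for those with TRAV17, TRAV19 or TRAV21-DV12 (SD, n = 8 libraries). All other TRAV labels together averaged 29.7 ± 0.656, so the far mean lay below this average and the near mean far above it. Single labels lay as low as a far gene: 7 others with at least 100 clonotypes had a lower mean than TRAV1.

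By library, the far mean was 20.9 and 20.4 in KO anti-4-1BB, 21.9 and 24.0 in KO IgG, 22.8 and 27.2 in WT anti-4-1BB, and 21.8 and 23.1 in WT IgG, experiment 1 given before experiment 2. The near mean was 50.2 and 48.8 in KO anti-4-1BB, 48.9 and 50.02 in KO IgG, 49.6 and 49.3 in WT anti-4-1BB, and 50.3 and 49.02 in WT IgG. The far and near ranges did not overlap, and the highest far value came from experiment 2, in WT anti-4-1BB, which had only 12 far clonotypes. Far minus near was -26.76 ± 2.23 TRAJ numbers, lower in 8 of 8 libraries (two-sided exact permutation test over sign patterns, p = 0.0078, the smallest it can give, adjusted p = 0.036 over 14 tests). Far minus other TRAV was -6.98 ± 2.08 and near minus other TRAV was 19.8 ± 1.07, each in the same direction in 8 of 8 libraries, with the same exact p = 0.0078 and adjusted p = 0.036.

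**Figure D1:**
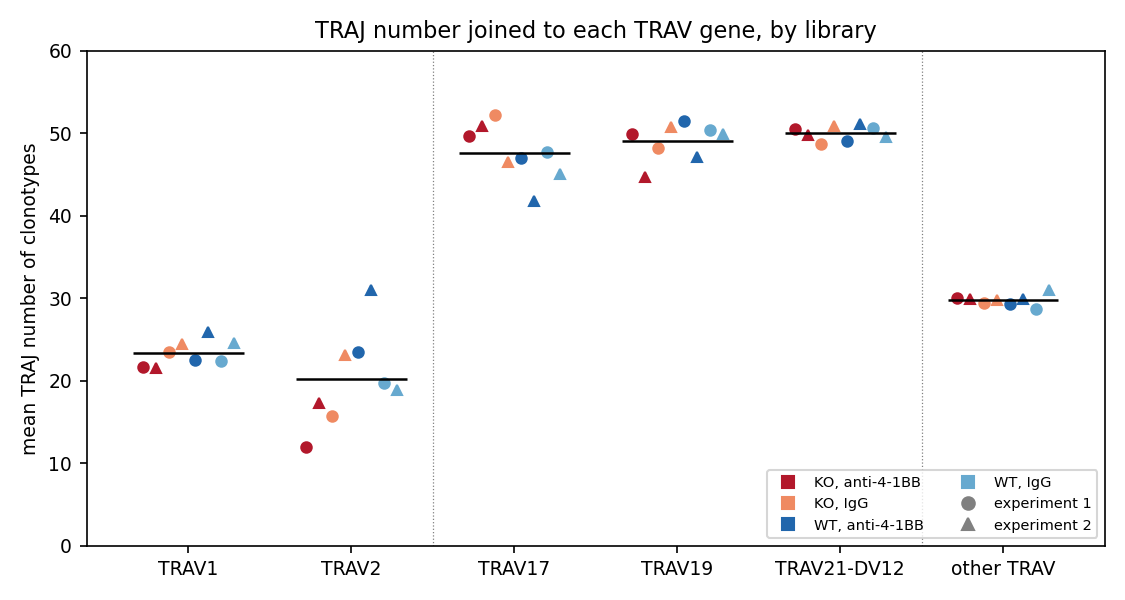
Mean TRAJ number of the clonotypes of each gene (y axis), 1 point per library, with colour for the group, shape for the experiment and a black line for the mean over 8 libraries. TRAV1 and TRAV2 sit between 12.0 and 31, TRAV17, TRAV19 and TRAV21-DV12 between 41.8 and 52.3, and the other TRAV labels between 28.7 and 30.9.

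Each of the 5 genes showed its side of the pattern on its own. TRAV2 averaged 20.2 ± 5.77 and TRAV1 23.3 ± 1.56, while TRAV17 averaged 47.6 ± 3.34, TRAV19 49.1 ± 2.24 and TRAV21-DV12 50.03 ± 0.868 (TRAJ number, SD, n = 8 libraries). By library, TRAV1 averaged 21.6 and 21.5 in KO anti-4-1BB, 23.4 and 24.5 in KO IgG, 22.5 and 25.9 in WT anti-4-1BB, and 22.4 and 24.5 in WT IgG. TRAV21-DV12 averaged 50.5 and 49.7 in KO anti-4-1BB, 48.8 and 50.9 in KO IgG, 49.1 and 51.1 in WT anti-4-1BB, and 50.6 and 49.6 in WT IgG. Both were steady across libraries and groups, with no overlap between them. The wide spread of TRAV2 goes with 1 to 19 clonotypes per library, against 50 to 129 for TRAV21-DV12. All 6 pairs of a far and a near gene differed in 8 of 8 libraries (exact permutation test, adjusted p = 0.013 over 10 pairs). Within each side, neighbours did not differ beyond their spread. TRAV1 minus TRAV2 was 3.14 ± 4.75 (exact p = 0.11, adjusted p = 0.16). TRAV17 minus TRAV21-DV12 was -2.43 ± 3.904 (exact p = 0.13, adjusted p = 0.16), TRAV17 minus TRAV19 was -1.45 ± 4.39 (exact p = 0.37, adjusted p = 0.37) and TRAV19 minus TRAV21-DV12 was -0.98 ± 2.39 (exact p = 0.28, adjusted p = 0.31).

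The separation was also seen at fixed points along the row: 4 of 238 far clonotypes used a TRAJ above 40 (1.68%, exact 95% interval 0.46 to 4.25), against 923 of 1111 near clonotypes (83.1%, 80.7 to 85.2). In the other direction, 176 of 238 far clonotypes used TRAJ30 or lower (73.9%, 67.9 to 79.4), against 42 of 1111 near clonotypes (3.78%, 2.74 to 5.08). Intervals cover counting error alone. Among near genes the share with TRAJ30 or lower was 7.097% for TRAV17 (3.60 to 12.3), 3.28% for TRAV19 (1.58 to 5.95) and 3.23% for TRAV21-DV12 (2.01 to 4.89), and these intervals overlap. The lowest numbers, TRAJ1 to TRAJ10, made up 8.40% of far clonotypes, 0.90% of near clonotypes and 8.06% of those with other TRAV labels. Among other TRAV labels 50.4% used TRAJ30 or lower and 21.2% used a TRAJ above 40.

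Segment by segment, 31 of 43 TRAJ labels had at least 10 far and near clonotypes together and were tested, with edgeR's quasi-likelihood test on clonotype counts and the library as a block. Of these, 28 were called at an adjusted p below 0.05 (90.3%): 14 higher in far genes (45.2%) and 14 higher in near genes (45.2%). The 14 higher in far genes were numbered 9 to 34, the 14 higher in near genes 40 to 58, and of the 3 not called TRAJ37 and TRAJ39 lay between these stretches and TRAJ32 within the far one. The called labels of the far and near genes did not interleave along the row.

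TRAJ57 was found in 0 of 238 far clonotypes and 195 of 1111 near clonotypes (17.6%), so its share was 13.9-fold higher in near genes when a floor of 3 clonotypes over all far libraries is taken. TRAJ56 was found in 1 far and 176 near clonotypes (0.42% and 15.8%, log2 difference -4.78 ± 0.64 SE, edgeR adjusted p = 3.4e-11). TRAJ58 was found in 0 far and 138 near clonotypes (12.4%), 9.85-fold higher in near genes at the same floor. These 3 segments lie closest to the TRAV genes among those found, and each was present in near clonotypes of all 8 libraries. TRAJ49 (0 and 96 clonotypes), TRAJ53 (0 and 61), TRAJ52 (0 and 57), TRAJ48 (0 and 34) and TRAJ50 (0 and 29) were likewise not seen with a far gene, at lower bounds of 6.86, 4.36, 4.07, 2.43 and 2.07-fold higher in near genes, in that order. A count of 0 among 238 far clonotypes allows a share of up to 1.26%.

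TRAJ17 was found in 19 far and 1 near clonotypes (7.98% and 0.09%, log2 difference 5.04 ± 0.69, edgeR adjusted p = 4.2e-11). TRAJ21 was found in 17 far and 1 near clonotypes (7.14% and 0.09%, log2 difference 4.86 ± 0.71, edgeR adjusted p = 3.8e-10). TRAJ18, the J segment of the invariant natural killer T cell receptor when joined to TRAV11, was found in 14 far and 0 near clonotypes, 21.8-fold higher in far genes at a floor of 3 near clonotypes. TRAJ12 was found in 12 far and 0 near clonotypes, 18.7-fold higher in far genes at the same floor. For both, a count of 0 among 1111 near clonotypes allows up to 0.27%. TRAJ23 (18 and 5), TRAJ22 (14 and 3), TRAJ13 (13 and 2) and TRAJ27 (12 and 2 clonotypes) followed, with log2 differences of 3.63 to 4.22.

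**Figure D2:**
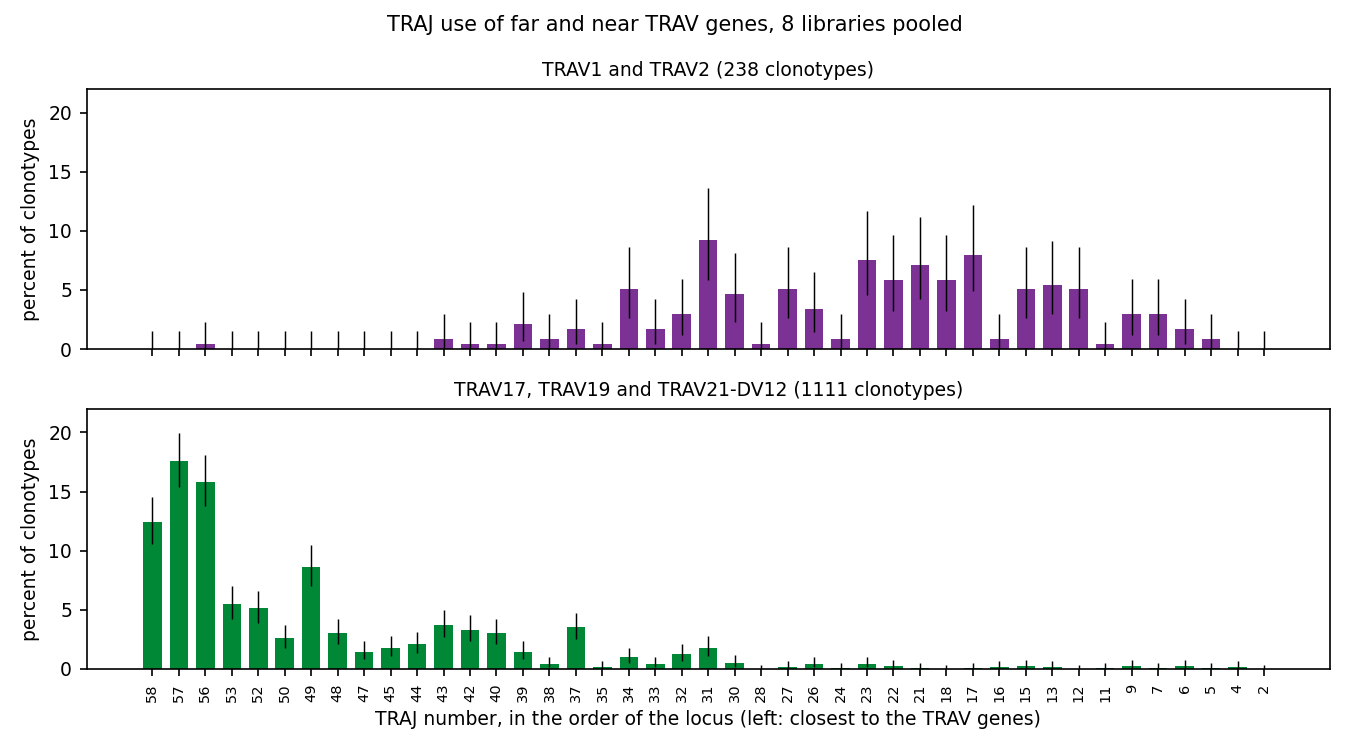
Percent of clonotypes (y axis) that used each TRAJ segment, in locus order (x axis, TRAJ number), for the far genes above and the near genes below. Bars pool 8 libraries and lines are exact 95% intervals. Near genes peak at TRAJ57 (17.6%) and far genes at TRAJ31 (9.24%).

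The leading segments overlapped among the near genes, while those of TRAV2 rest on too few clonotypes to be compared with those of TRAV1. TRAV19 and TRAV21-DV12 had the same first 3 segments: TRAJ57 at 21.6% ± 5.03 and 17.1% ± 4.57 of their clonotypes, TRAJ56 at 16.7% ± 7.42 and 15.9% ± 2.36, and TRAJ58 at 12.0% ± 4.21 and 14.3% ± 4.14 (SD over 8 libraries). TRAV17 used TRAJ56 (12.2% ± 5.25), TRAJ57 (12.1% ± 10.6) and TRAJ52 (11.9% ± 11.9), the last from 15 of 155 clonotypes. Among other TRAV labels these segments were rare: TRAJ57 made up 1.54% of clonotypes, TRAJ56 1.58%, TRAJ52 1.88% and TRAJ58 0.827%. TRAV1 had no dominant partner, with TRAJ31 at 9.44% ± 4.498, TRAJ17 at 8.04% ± 7.62 and TRAJ18 at 7.49% ± 8.16. TRAV2 led with TRAJ12 (16.3% ± 34.3), TRAJ15 (9.77% ± 12.6) and TRAJ13 (6.21% ± 8.76), from 4, 6 and 4 of 61 clonotypes. The first mean rests on 1 library with a single TRAV2 clonotype.

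As a description, the mean TRAJ number in the rest of the locus tended to fall with distance, but not along all of it. Over the 62 other TRAV labels with at least 100 clonotypes, Spearman's rho between the distance to TRAJ58 and the mean TRAJ number was -0.67. Without labels marked as D or N copies, whose near-identical sequences may make their exact place uncertain, it was -0.96 over 30 labels. That leaves no label between TRAV4-2 at 738 kb and TRAV6-2 at 1489 kb. Within this stretch the means did not fall steadily. TRAV14N-3 at 787 kb averaged 26.2, TRAV3N-3 at 873 kb 21.9, TRAV6D-6 at 1335 kb 31.9 and TRAV7D-2 at 1473 kb 26.2. The points of both correlations share libraries and TRAJ segments. Among these 62 labels none had a higher mean than TRAV17 or a lower mean than TRAV2, but 7 had a lower mean than TRAV1. TRAV2 itself had only 61 clonotypes. The lowest other mean, 21.5 for TRAV12D-3, lies within the SD of TRAV2 (20.2 ± 5.77), so TRAV2 is not set apart as the lowest. The 9 other labels within 500 kb of TRAJ58 averaged 35.7 to 45.8, and the 53 beyond it 21.5 to 37.1.

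**Figure D3:**
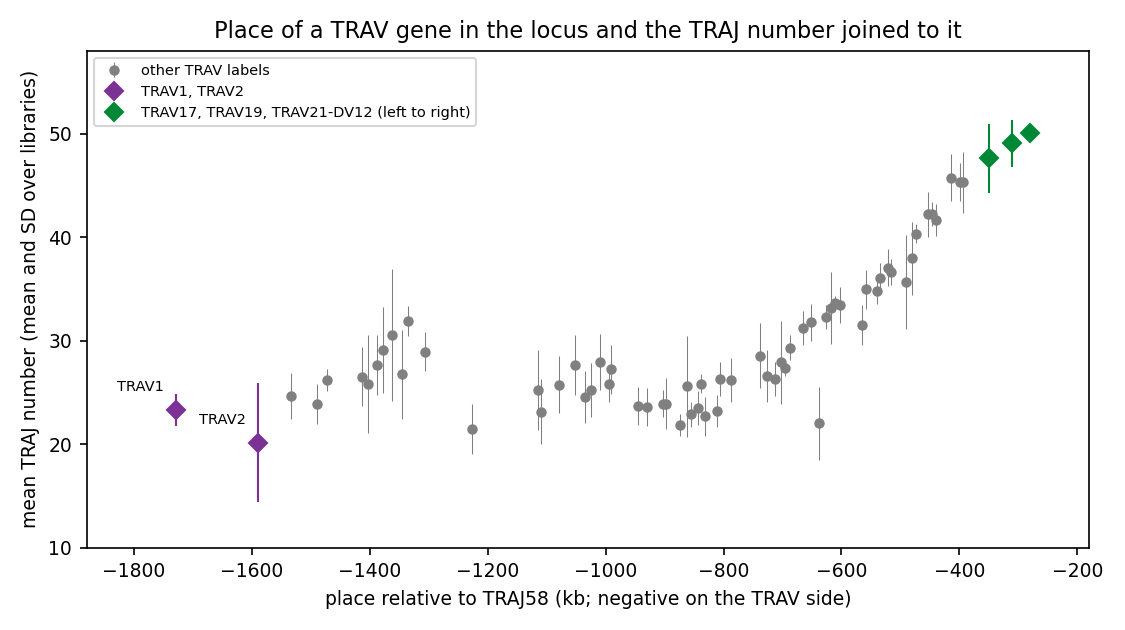
Mean TRAJ number (y axis, mean and SD over libraries) against place relative to TRAJ58 in kb (x axis). Points are the 5 genes and the 62 other TRAV labels with at least 100 clonotypes. The near genes, at 281 to 350.2 kb, hold the highest means, while beyond 500 kb other labels lie between 21.5 and 37.1, as TRAV1 (23.3) does and TRAV2 (20.2) does not.

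Likeness of TRAJ use was measured as 0.5 times the summed absolute difference of mean shares over 6 bins of TRAJ numbers, over 8 libraries and 46 other labels with at least 200 clonotypes. TRAV1 was most like TRAV5N-4 (3.18 percentage points apart) and then TRAV16N (10.01), which lie 844 and 806 kb from TRAJ58, about midway along the locus. TRAV2 was most like TRAV4N-4 (13.8) and TRAV5N-4 (14.6). TRAV14-3 and TRAV13-4-DV7 came first and second for all 3 near genes, 12.3 and 14.2 points from TRAV17, 19.6 and 21.8 from TRAV19 and 17.1 and 17.9 from TRAV21-DV12. Both lie at 394 and 399 kb, the next stretch of the locus.

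CDR3s of the far genes together were shorter than those of the near genes together. They averaged 40.7 ± 0.908 bases against 42.7 ± 0.447 in near CDR3s (SD, n = 8 libraries), a difference of -1.99 ± 1.06, shorter in 8 of 8 libraries (exact permutation test, p = 0.0078, adjusted p = 0.013 over 5 tests added after the data were seen). By gene, the mean was 40.6 ± 0.742 bases for TRAV1, 40.7 ± 2.21 for TRAV2, 41.9 ± 1.18 for TRAV17, 41.3 ± 0.63 for TRAV19 and 43.4 ± 0.603 for TRAV21-DV12. TRAV21-DV12, the most used near gene, had the longest CDR3s, and the range of TRAV2 over libraries (37 to 43.5) covered the means of all 5 genes. The median CDR3 was 39 bases for TRAV1 and 42 for each of the other 4 genes, so the difference between the sides was not shared evenly by their genes. The number of bases between the usual V start and J end was 3.50 ± 0.875 in far and 4.08 ± 0.238 in near CDR3s, lower in 6 of 8 libraries (exact p = 0.10, adjusted p = 0.13). No such base was present in 16.9% of TRAV1 clonotypes, 11.5% of TRAV2, 14.2% of TRAV17, 5.90% of TRAV19 and 5.07% of TRAV21-DV12. UMIs per main contig averaged 7.72 ± 1.80 in far and 7.95 ± 1.40 in near clonotypes (exact p = 0.59, adjusted p = 0.59).

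TRAV1 with TRAJ33, the MAIT alpha chain, was rare. It was found in 5 of 38108 cells (0.0131%, exact 95% interval 0.00426 to 0.0306), and in 4 of the 5 it was the main TRA. All 5 carried the same CDR3 of 36 bases, the length of the MAIT chain, in 1 KO IgG library (1 cell) and both WT anti-4-1BB libraries (2 cells each). The other 5 libraries held 0 such cells. The 5 beta chains used TRBV13-3 (2 cells), TRBV19, TRBV16 and TRBV5 (1 cell each), so 3 of 5 had a V gene known as a MAIT beta partner, and the 4 clonotypes had 4 different TRB sequences. These partners are common labels. TRBV13-1, TRBV13-2, TRBV13-3 and TRBV19 were found in 20, 3, 23 and 12 of 238 far clonotypes. In the same order they were found in 69, 17, 67 and 40 of 1111 near clonotypes. Whether 3 of 5 exceeds such shares was not tested.

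The share of TRAJ33 was not distinguishable between TRAV1 and other TRAV clonotypes. It made up 4 of 177 TRAV1 clonotypes (2.26%, 0.62 to 5.68) and 854 of 29140 other TRAV clonotypes (2.93%, 2.74 to 3.13). By library the TRAV1 share was 0 and 0% in KO anti-4-1BB, 0 and 4.76% in KO IgG, 2% and 22.2% in WT anti-4-1BB and 0 and 0% in WT IgG. The mean difference was 0.74 ± 7.58 percentage points, higher in 2 of 8 libraries (exact permutation test, p = 0.98, adjusted p = 1). It rests on WT anti-4-1BB in experiment 2, where 2 of 9 TRAV1 clonotypes had TRAJ33: without it the difference was -1.88 (exact p = 0.047, unadjusted). TRAJ33 was found in 0 of 61 TRAV2 clonotypes, which allows up to 4.92%.

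Some alpha chains recurred with different beta chains. The chain of TRAV21-DV12 with TRAJ56 was found in 5 libraries and 9 clonotypes with 9 different TRB sequences and 7 TRBV labels, 21 cells in all. The TRAV19 chain with TRAJ57 was found in 3 libraries with 5 TRB sequences, and the TRAV1 chain with TRAJ33 in 3 libraries with 4. Of distinct alpha rearrangements, 47 of 531 (8.85%) were found in more than 1 library for TRAV21-DV12, 15 of 270 (5.56%) for TRAV19 and 8 of 143 (5.59%) for TRAV17. The counts were 7 of 161 (4.35%) for TRAV1, 2 of 57 (3.51%) for TRAV2 and 1409 of 25355 (5.56%) for other TRAV labels. The number of chains sampled differed between the genes, and its part in these shares was not tested. Whole receptors were shared far less: 2 of 1347 pairs of TRB and main TRA occurred in more than 1 library.

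Far chains stood more often beside another alpha chain. Both alleles can be joined, so a T cell can carry 2 TRA, and 2320 kept cells did. No doublet caller was run: the 4077 of 74368 cells with more than 1 TRB (5.48%) were left out, and doublets that show 1 TRB may remain. The share left out this way was highest in WT anti-4-1BB of experiment 1 (9.33%, against 3.15 to 5.45% elsewhere), the library with the highest near and other shares of chains in cells with 2 TRA, and its part in these shares was not tested. Of distinct chains, 57 of 267 far chains were in cells with 2 TRA (21.3%, exact 95% interval 16.6 to 26.8), against 127 of 1173 near chains (10.8%, 9.11 to 12.7) and 3978 of 30904 other chains (12.9%, 12.5 to 13.3). TRAV1 accounted for most of it, with 48 of 202 chains (23.8%, 18.1 to 30.2), while TRAV2 had 9 of 65 (13.8%, 6.53 to 24.7).

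By library the far share was 33.3 and 23.1% in KO anti-4-1BB, 26.1 and 13.9% in KO IgG, 25.9 and 15.4% in WT anti-4-1BB and 14.7 and 17.9% in WT IgG. The near share was 13.5 and 9.49%, 5.88 and 8.59%, 17.5 and 7.09%, and 6.19 and 10.9% in the same order of groups. The far share was the higher one within every library, although the ranges overlap between libraries. Far minus near was 11.4 ± 5.80 percentage points and far minus other TRAV 9.24 ± 6.45, both higher in 8 of 8 libraries (exact permutation test, p = 0.0078, adjusted p = 0.013 over the 5 tests added after the data were seen).

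The partner chain leaned the same way as the chain itself. In cells with 2 TRA, the other chain had a mean TRAJ number of 20.04 ± 6.87 beside a far chain and 39.02 ± 4.58 beside a near chain (SD, n = 8 libraries). The 6 cells with 2 near chains stayed in and were counted from each chain, while 0 cells held 2 far chains. Partners of near chains thus include near genes themselves, and the part of this in the difference was not tested. By library it was 20.6 and 19.0 beside far chains in KO anti-4-1BB, 14.8 and 28.0 in KO IgG, 15.6 and 32.0 in WT anti-4-1BB, and 11.4 and 18.9 in WT IgG. Beside near chains it was 42.1 and 41.5 in KO anti-4-1BB, 45.0 and 37.3 in KO IgG, 41.4 and 30.4 in WT anti-4-1BB, and 35.3 and 39.1 in WT IgG. The far value was lower in 7 of 8 libraries, all but WT anti-4-1BB of experiment 2. The difference was -18.98 ± 10.2 (exact permutation test, p = 0.016), which did not pass after adjustment (adjusted p = 0.055 over 14 tests).

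Pooled, the partner's TRAJ number had a median of 12 beside far chains (57 combinations of a chain and its partner), 43 beside near chains (128) and 30 beside other chains with an other partner (3835, each pair counted from both of its chains). Pairs of 2 near chains are among the 128, whereas far and near partners are left out of the 3835. A partner above TRAJ40 stood beside 5 far chains (8.77%) and 72 near chains (56.3%), and 18.5% of other chains. No kept cell held both a far and a near chain, 0 cells held 2 far chains and 6 held 2 near chains. Few cells could: of 2320 cells with 2 TRA, 59 held a far chain and another TRA, and 128 a near chain and another TRA. Whether these counts differ from random pairing of chains was not tested. Within cells with 2 TRA, the far chain was the one with fewer UMIs in 51.2% ± 12.2 and the near chain in 54.02% ± 15.4 (UMI ties counted as 0.5), a difference of -2.82 ± 19.2 points (exact permutation test, p = 0.67, adjusted p = 1).

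**Figure D4:**
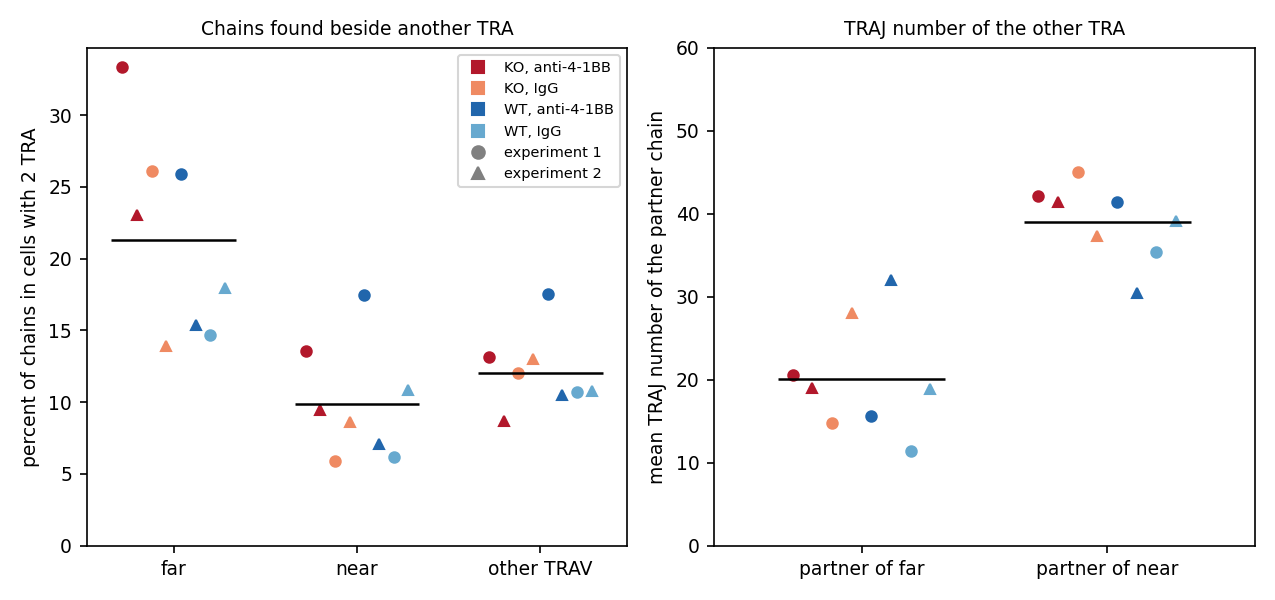
Left, percent of distinct far, near and other TRA chains found in cells with 2 TRA; right, mean TRAJ number of the other TRA beside far and near chains. Points are libraries and lines the mean of 8. The far share averaged 21.3%, against 9.89% for near, and partner means 20.04 beside far against 39.02 beside near chains.

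No TRBV label of the beta chain passed the test between far and near clonotypes. Of 21 TRBV labels tested in the same kind of edgeR fit, 0 were called (0%), 2 had an unadjusted p below 0.05, and DESeq2 called 1. The SE of the log2 difference ran from 0.33 to 1.01 over the 21 labels, so differences of this size could be missed for single labels. The smallest p among labels higher in far clonotypes belonged to TRBV12-1 (9 of 238 far and 11 of 1111 near, log2 difference 1.84 ± 0.68 SE, edgeR adjusted p = 0.16) and TRBV14 (6 and 8 clonotypes, log2 difference 1.46 ± 0.79, edgeR adjusted p = 0.31). The smallest among labels higher in near clonotypes belonged to TRBV15 (8 and 79, log2 difference -1.09 ± 0.50, edgeR adjusted p = 0.31) and TRBV31 (15 and 111, log2 difference -0.70 ± 0.39, edgeR adjusted p = 0.31).

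The mean share of expanded clonotypes did not differ from that of other TRAV labels beyond the spread, but for far genes the libraries lay on both sides of 0. Clonotypes of 2 or more cells made up 10.5% ± 5.75 of far clonotypes and 10.1% ± 2.25 of near clonotypes, against 10.2% ± 2.69 of others (SD, n = 8 libraries). Far minus other was 0.29 ± 6.92 points (exact permutation test, p = 0.93, adjusted p = 1) and near minus other -0.14 ± 3.001 (exact p = 0.90, adjusted p = 1). Far minus other was 14.3 and 1.41 in KO anti-4-1BB, 1.37 and 4.497 in KO IgG, -4.69 and -7.54 in WT anti-4-1BB, and -2.096 and -4.91 in WT IgG, so the mean near 0 averages values above 0 in KO and below 0 in WT. Counting only clonotypes of 3 or more cells, it was -2.67 (exact permutation test, p = 0.016, unadjusted). Without KO anti-4-1BB of experiment 1 it was -1.71, and without KO IgG of experiment 2 -0.31. No far clonotype reached 10 cells, while 8 of 1111 near and 112 of 29140 other clonotypes did. The largest near clonotype was TRAV21-DV12 with TRAJ53, 36 cells in WT anti-4-1BB of experiment 2, 0.811% of that library's kept cells. The largest of TRAV19 had 12 cells and that of TRAV17 had 11, both in WT IgG of experiment 2. The largest of TRAV1 had 5 cells, in KO anti-4-1BB of experiment 2, and 4 TRAV2 clonotypes had 2 cells each.

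No treatment difference of the 5 genes passed the test. The far share of clonotypes was 0.585 and 0.650% in KO anti-4-1BB, 0.867 and 0.691% in KO IgG, 0.910 and 0.427% in WT anti-4-1BB, and 0.905 and 0.985% in WT IgG, experiment 1 before experiment 2. The near share was 3.76 and 3.67%, 4.25 and 3.94%, 3.24 and 4.37%, and 2.77 and 3.86% in the same order of groups. Anti-4-1BB minus IgG was -0.22 ± 0.26 percentage points for far genes, lower in 3 of 4 combinations of experiment and genotype, and 0.06 ± 0.51 for near genes, higher in 2 of 4. The exact permutation tests inside these combinations gave p = 0.25 and p = 0.88 (adjusted p = 0.70 and 1), and 0.13 is the smallest p they allow. Without WT anti-4-1BB or WT IgG of experiment 2 the far difference was -0.11. Within experiments the far difference was -0.14 (experiment 1) and -0.30 (experiment 2), and the near difference -0.01 and 0.13.

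No genotype difference passed either. KO minus WT was -0.11 ± 0.26 points for far genes, -0.18 in experiment 1 and -0.04 in experiment 2, and 0.34 ± 0.91 for near genes, 1.00 in experiment 1 and -0.31 in experiment 2. The far difference was -0.22 without KO or WT anti-4-1BB of experiment 2, -0.036 without either of experiment 1, and -0.046 without KO or WT IgG of experiment 2. Neither passed (exact permutation tests, p = 0.38 and 0.63, adjusted p = 0.75 and 1), and neither could, since 0.13 is the smallest p these tests allow. The near difference did not hold within both experiments. In edgeR fits over 153 V and J segments, 1 segment was called for anti-4-1BB against IgG (0.654%) and 1 for KO against WT (0.654%), and 0 of the 5 genes were called in either. With the experiment as a paired block, the first count was 2 segments and again 0 of the 5 genes.

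Per gene, the log2 difference of anti-4-1BB minus IgG was -0.26 ± 0.32 for TRAV1, -0.53 ± 0.46 for TRAV2, 0.21 ± 0.33 for TRAV17, -0.12 ± 0.28 for TRAV19 and 0.03 ± 0.25 for TRAV21-DV12 (SE, edgeR adjusted p = 0.96 to 0.99). KO minus WT was -0.24 ± 0.32 for TRAV1, -0.40 ± 0.46 for TRAV2, 0.48 ± 0.33 for TRAV17, 0.16 ± 0.28 for TRAV19 and 0.06 ± 0.25 for TRAV21-DV12 (edgeR adjusted p = 0.99). Most of these estimates are smaller than their SE, and several rest on 1 library. The KO minus WT value of TRAV17 was 1.01 without WT IgG of experiment 2 (edgeR unadjusted p = 0.017, adjusted p = 0.51) and 0.10 without KO IgG of experiment 2. That of TRAV2 was -1.11 without KO anti-4-1BB of experiment 2 and -0.14 without that of experiment 1, and that of TRAV1 was 0.12 without WT anti-4-1BB of experiment 1. Over all fits the treatment value ran from -0.62 to -0.064 for TRAV1, -1.24 to -0.27 for TRAV2 and -0.08 to 0.73 for TRAV17. No unadjusted p for the 5 genes was below 0.05 in either edgeR fit on all 8 libraries, and DESeq2 called 0 of them. TRAV21-DV12 was the most used of the 5 in every library, at 1.70 to 3.06% of clonotypes, and TRAV2 the least used in all but WT IgG of experiment 1, at 0.0418 to 0.251%.

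The gap between far and near TRAJ numbers was present in all groups, and the tests of differences between groups could not pass with so few libraries. It averaged -26.6 ± 3.19 with anti-4-1BB and -26.9 ± 1.21 with IgG, and -27.7 ± 1.43 in KO and -25.8 ± 2.72 in WT (SD, n = 4 libraries). Anti-4-1BB minus IgG was 0.23 ± 3.04 and KO minus WT -1.83 ± 3.38 TRAJ numbers (exact permutation tests inside experiments, p = 1 and 0.38, adjusted p = 1 and 0.75). The smallest p these tests allow is 0.13, so they cannot decide whether the gap differs. Single pairs of libraries ran from -2.34 to 3.80 for treatment and from -6.28 to 1.52 for genotype.

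**Figure D5:**
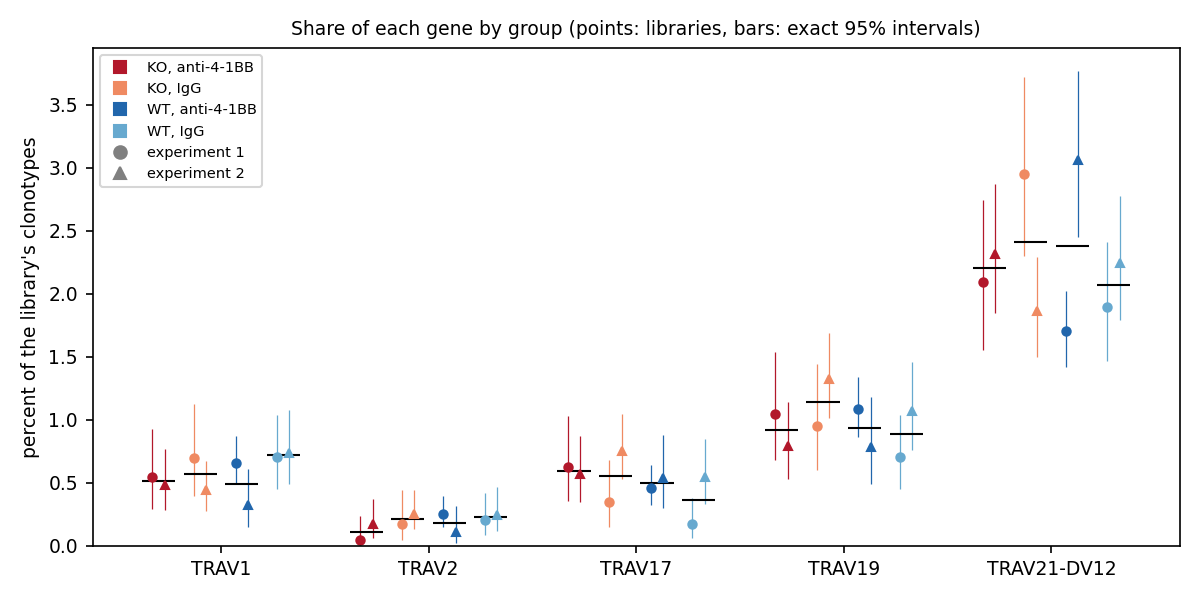
Share of a library's clonotypes that used each gene (y axis, percent), by group. Points are libraries (shape for the experiment) with exact 95% intervals, and black lines are the mean of 2 libraries; TRAV21-DV12 runs from 1.70 to 3.06% and TRAV2 from 0.0418 to 0.251%, and the KO and WT points overlap for all 5 genes.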

How the data were processed

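Each deposited table lists the assembled receptor contigs of 1 of 8 libraries with, per the file headers, V and J labels, CDR3 nucleotides and counts of reads and UMIs. Cell Ranger 7.1.0, bcl2fastq 2.20.0, Seurat and the build GRCm38 are named, per the submitters' processing notes; which V(D)J reference was used is not given in the sources used here. The contigs are all flagged as cell-associated, high-confidence, full-length and productive (0 of 123611 without). The 8 gene expression libraries were not analysed here.

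Cells with 1 TRB and 1 or 2 TRA were kept and clonotypes counted once, as given in the report. TRAJ numbers, shares and lengths were averaged per library and compared by two-sided exact permutation tests (Python 3.11.15, scipy 1.17.1). Segment counts were tested with edgeR 4.0.16, column totals as library size and 1 spread for all labels, with Benjamini-Hochberg adjustment. That single spread was chosen after the calls under edgeR's default trend had been seen, and both are given. DESeq2 1.42.0 was an alternative. The fits and the permutation test were run on simulated data with known changes. Group fits needed at least 10 clonotypes in 2 libraries, and far against near fits at least 10 in all. Replicate numbers are experiments, labelled as batches, so the pairing comes from the labels. Deviations from group means correlated at -0.13 to 0.40 between libraries of 1 experiment. The 88 TRAV and 43 TRAJ labels all matched the annotation.

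TRAJ and TRBV labels named are the up to 8 called with the smallest p in each direction, or the 2 with the smallest p where none was called. For each gene the 3 leading TRAJ labels, the most widespread rearrangement and the largest clonotype are named, with the 2 most similar TRAV labels. TRAV11, its neighbours and the beta partners of the MAIT chain were named outside this rule, after their values were seen. The members, lists and tests were chosen with earlier results of these data known.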

Additional observations from a re-analysis of the deposited data

Results flagged for a closer look

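Of 74368 cells, 38108 were kept. The cells left out had 1 TRB and no TRA (28330), more than 1 TRB (4077) or no TRB (3853). The cells left out that had a TRA hold data that the comparisons did not use. Their distinct TRA chains, 56 far and 258 near, showed the same kind of gap: a mean TRAJ number of 24.4 for far and 48.6 for near genes, a difference of -24.15 ± 4.25, lower in 8 of 8 libraries (two-sided exact permutation test, p = 0.0078, the smallest it can give).

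In far genes, the share of clonotypes with 2 or more cells minus that of other TRAV labels was above 0 in all 4 KO libraries (mean 5.39 ± 6.12 percentage points) and below 0 in all 4 WT libraries (mean -4.81 ± 2.23). No p is given for the difference of 10.2 points: it was found by searching 8 results over genotype, treatment and experiment for such a split, and a complete split fixes the exact p at its smallest value. It rests on few clonotypes, 21 of 238 far clonotypes with 2 or more cells, and in experiment 1 KO anti-4-1BB had 3 of 14: without that library the KO mean was 2.42 points.

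The treatment difference of the near share was below 0 in both experiments in KO (mean -0.38 points) and above 0 in both in WT (mean 0.49). The treatment difference of the gap between far and near TRAJ numbers was likewise below 0 in both KO pairs (mean -2.29) and above 0 in both WT pairs (mean 2.75). Neither of these differences between genotypes was tested.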

How the results depend on the processing

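All 19 alternatives of far minus near TRAJ number kept direction and, before adjustment, side of the threshold (-27.55 to -25.8). So did far minus other (-7.65 to -6.63), near minus other (18.3 to 20.2) and the partner TRAJ number (-21.9 to -17.4). Leaving out any library gave p = 0.016 for far minus near, far minus other and near minus other (exact permutation test, unadjusted). That is the smallest p the test can give with a library left out. Too few of the 14 tests reached it for any to pass after adjustment. The called TRAJ labels numbered 22 to 30. The far share kept its direction, from -0.29 to -0.11 for treatment and from -0.22 to -0.03 for genotype.

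Results near 0 did not keep theirs. The TRAJ33 difference was -2.95 without rearrangements found in more than 1 library, which removes the TRAV1 and TRAJ33 chain by construction, and -1.88 to 1.33 leaving out 1 library. The second chain difference ran from -7.03 to 0.63 leaving out 1 library. Far expansion minus other was -2.67 from 3 cells (exact p = 0.016, unadjusted) and -1.71 to 1.41 leaving out 1 library. Near expansion minus other was 0.068 with 3 UMIs per chain, 0.26 with exactly 1 TRA, 0.023 without rearrangements found in more than 1 library, 0.94 from 3 cells, and -0.60 to 0.59 leaving out 1 library. The near share of anti-4-1BB minus IgG was -0.15 in cells, -0.00031 with exactly 1 TRA and -0.094 to 0.24 leaving out 1 library. That of KO minus WT ran from -0.033 to 0.69 leaving out 1 library. The treatment difference of the gap was -0.012 with both chains, -0.029 without TRAV1 joined to TRAJ33, and -0.96 to 1.09 leaving out 1 library. The cause was not tested.

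DESeq2 called 1 TRBV label, and leaving out 1 library gave 0 to 1 (1 without WT IgG of experiment 2). For treatment, the experiment as a replicate block gave 2 segments, TMM factors 2, edgeR's default trend 2 and DESeq2 0, with 0 to 2 leaving out 1 library. For genotype, cells gave 0 and DESeq2 0, with 0 to 2 leaving out 1 library. None of the 5 genes was called in any of these fits (14 to 16 each). The block changed no other call. Depth limits TRAV2 most, with 1 clonotype in 1 library. The far and near tests of CDR3 length and of cells with 2 TRA, and the default trend, were added after seeing the data.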

Other observations

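TRAV11 stood below its neighbours in the locus: it lies 637 kb from TRAJ58 and had a mean TRAJ number of 22.04 ± 3.52 (SD, n = 8 libraries), against 32.3 ± 1.13 for TRAV7-5 at 626 kb and 31.8 ± 1.78 for TRAV10 at 651 kb. TRAV11 joined to TRAJ18 is the alpha chain of invariant natural killer T cells. It was picked out after its value was seen, and no test was run.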
